A study of Mus musculus with 6 samples.

Results

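The α- and β-tubulin isotype genes expressed as building blocks of microtubules were examined in NCU10K cells, an immortalised mouse neural crest cell line, after knockdown of Nedd4. The family was taken as 10 genes, Tuba1a, Tuba1b, Tuba1c, Tuba4a, Tubb2a, Tubb2b, Tubb3, Tubb4b, Tubb5 and Tubb6. A gene counted as measured where a probeset of the array carried its symbol alone, and the probeset with the highest mean over the arrays was used. This left 7 of the 10 genes, of 19933 genes with a probeset of their own in all. Tuba1b, Tuba1c and Tubb4b were represented only by probesets assigned to several genes, and those 7 shared probesets are described separately. Of the 7 measured isotypes, Tubb3 and Tuba1a rose in cells treated with Nedd4 siRNA, by 1.27-fold and 1.24-fold. None of them fell past the test. Outside the isotypes, both γ-tubulin genes fell more than 2-fold.

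The study compared 3 arrays of NCU10K cells treated with Nedd4 siRNA with 3 arrays of NCU10K cells treated with control siRNA, all collected at 48 h. Each array came from a separate experiment, and cells of both groups received the lipid transfection reagent RNAiMAX and the same medium. Both groups were of the same cell line, a single Nedd4 siRNA sequence was used, and the comparison held no further siRNA and no re-expression of Nedd4. RNA was hybridised to Affymetrix mouse gene arrays with probes along the length of each transcript, and every value below is a log2 expression value given to 2 decimals.

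Microtubules are hollow polymers of αβ-tubulin heterodimers, and mammals make them from several α and β isotypes encoded by separate genes. The isotypes differ mainly in their acidic C-terminal tails, which motor proteins and severing enzymes read and which modifying enzymes alter. Tubulin mRNA levels are set in part by autoregulation, in which excess free heterodimer triggers decay of tubulin mRNA during translation. In neural crest cells microtubules serve division, polarity and migration, and Tubb3 is widely used as a marker of neurons that arise from the crest.

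Nedd4, the HECT-type ubiquitin ligase targeted by the siRNA, stood at 10.45, 10.94 and 10.68 on the Nedd4 siRNA arrays and at 12.24, 12.35 and 12.34 on the control siRNA arrays. Its knockdown was thus 3.07-fold (log2 fold change −1.62, SE 0.12, limma adjusted p = 3.16e-06), and the labels matched the targeted gene on all 6 arrays. Array medians lay between 6.28 and 6.35, and arrays of a group correlated at 0.994 to 0.997 over all probesets. The defining neural crest markers were present, with Sox10 at 10.64 and 11.07, Tfap2a at 8.98 and 9.49, Erbb3 at 9.65 and 10.78, and Ngfr at 11.05 and 11.19 in mean log2 values of Nedd4 siRNA and control siRNA cells. Sox10, Tfap2a and Erbb3 fell past the test, and Ngfr did not pass it (adjusted p = 0.369 from limma). Of all 15 crest markers on the list, 6 fell and 2 rose (53.3% called). The rises were Sox9 by 0.66 (limma adjusted p = 0.000337) and Twist1 by 0.31 (limma adjusted p = 0.0419) on the log2 scale. The call of Sox10 was lost with the unmoderated test that the methods name (adjusted p = 0.088). Over all genes, 9.62% rose and 9.13% fell at a limma adjusted p under 0.05 with Nedd4 siRNA, and 31.7% had groups that did not overlap. The number of arrays limits the precision of every value.

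The window of 150 bases before the RefSeq start (GRCm38.p6) is shown for the isotypes that rose, for Tubb5 and for Tubb4b, 5′ to 3′ on the strand of the gene, because the probesets of these genes moved most among the isotypes. Capitals mark each TATAA and each CCAAT, letters known from TATA boxes and CCAAT boxes, searched on both strands so that TTATA and ATTGG also count. The windows lie at chr15:98953502-98953651 on the minus strand for Tuba1a, chr8:123411403-123411552 on the plus strand for Tubb3, chr17:35838302-35838451 on the minus strand for Tubb5 and chr2:25224703-25224852 on the minus strand for Tubb4b.
Tuba1a: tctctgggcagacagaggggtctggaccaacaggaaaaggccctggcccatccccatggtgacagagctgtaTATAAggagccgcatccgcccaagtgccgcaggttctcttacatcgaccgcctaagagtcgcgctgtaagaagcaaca
Tubb3: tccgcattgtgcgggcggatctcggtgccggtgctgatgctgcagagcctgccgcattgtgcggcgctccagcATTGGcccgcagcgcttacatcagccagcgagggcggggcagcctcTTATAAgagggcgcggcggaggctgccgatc
Tubb5: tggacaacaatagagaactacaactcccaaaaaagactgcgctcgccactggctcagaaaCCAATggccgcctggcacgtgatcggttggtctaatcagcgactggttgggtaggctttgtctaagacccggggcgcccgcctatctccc
Tubb4b: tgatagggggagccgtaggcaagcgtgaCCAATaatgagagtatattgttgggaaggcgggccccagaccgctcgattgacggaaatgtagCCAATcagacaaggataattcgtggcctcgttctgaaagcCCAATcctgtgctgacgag
Both isotypes that rose held a TATAA, in Tubb3 as a match on each strand that overlapped within 1 stretch. Tubb5 held a single CCAAT and no TATAA, and Tubb4b held 3 copies of CCAAT and no TATAA. Of the 8 listed genes with a RefSeq promoter entry, 3 held a TATAA, which was present in 14.2% of 32851 windows of the same length. Beside Tuba1a and Tubb3 this was Tubb2a, with a TATAA at −29, whose level did not pass the test (limma adjusted p = 0.478). A CCAAT was present in 3 of the 8, against 24.5% of all windows. These matches describe the letters of the windows and were not tested for any role in the values below.

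Among the α-tubulins, Tuba1a encodes the isotype that is abundant in developing neurons and mutated in human lissencephaly. The Tuba1a probeset read 12.50, 12.41 and 12.44 with Nedd4 siRNA and 12.13, 12.09 and 12.20 with control siRNA. All Nedd4 siRNA arrays lay above all control siRNA arrays, and the means were 12.45 ± 0.046 and 12.14 ± 0.056 (SD, n = 3 arrays each). The log2 fold change was 0.31 (SE 0.085, 95% confidence interval 0.13 to 0.49, limma adjusted p = 0.0241), a 1.24-fold rise. The two-sided exact permutation test over arrays gave p = 0.1, the smallest p that 3 against 3 arrays allow. Tuba1a kept its direction with each array left out but missed the threshold in 4 of 6 cases, at a limma adjusted p of 0.0536 without control siRNA replicate 1, 0.0668 without control siRNA replicate 2, 0.134 without Nedd4 siRNA replicate 1 and 0.0683 without Nedd4 siRNA replicate 3. The α isotypes are nearly identical in their coding sequence, and whether RNA of its relatives binds the Tuba1a probeset was not tested. As RNA was taken from whole cultures, more RNA per cell and more cells of a type that expresses a gene cannot be told apart, here and in the results that follow.

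Tuba1b and Tuba1c, the broadly expressed α isotypes, were read only together. The annotation of the array assigned 3 probesets to Tuba1a, Tuba1b and Tuba1c at once and 1 probeset to Tuba1b and Tuba1c. In the RefSeq annotation Tuba1b and Tuba1a were direct neighbours, and Tuba1c lay next to them with no protein-coding gene between. The probeset of Tuba1b and Tuba1c read 12.76, 12.81 and 12.79 with Nedd4 siRNA and 12.69, 12.68 and 12.73 with control siRNA. These groups did not overlap, but the log2 fold change of 0.09 (95% confidence interval −0.09 to 0.27) did not pass the test (limma adjusted p = 0.621).

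Of the 3 probesets assigned to all of Tuba1a, Tuba1b and Tuba1c, the first read 12.57, 12.72 and 12.49 with Nedd4 siRNA and 12.43, 12.53 and 12.55 with control siRNA. The second read 13.05, 13.16 and 13.08 with Nedd4 siRNA and 13.07, 13.12 and 13.10 with control siRNA. The third read 13.37, 13.50 and 13.41 with Nedd4 siRNA and 13.35, 13.42 and 13.42 with control siRNA. In all 3 the groups overlapped, with log2 fold changes of 0.09, 0.00 and 0.03 and limma adjusted p values of 0.657, 1 and 0.902. The widest of their 95% confidence intervals ran from −0.11 to 0.29. Values in this range were close to the top of the scale, whose highest value on any array was 14.53. The Nedd4 siRNA mean of Tuba1a (12.45) lay at the low end of this range. The control siRNA mean of Tuba1a (12.14) and the Nedd4 siRNA and control siRNA means of Tubb5 (12.15 and 12.39) lay below it.

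Tuba4a, an α isotype whose transcript lacks the encoded C-terminal tyrosine of the others, read 5.97, 5.94 and 6.12 with Nedd4 siRNA and 6.07, 5.88 and 5.91 with control siRNA. The groups overlapped, and the log2 fold change was 0.06 (95% confidence interval −0.15 to 0.26, limma adjusted p = 0.812).

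**Figure D1:**
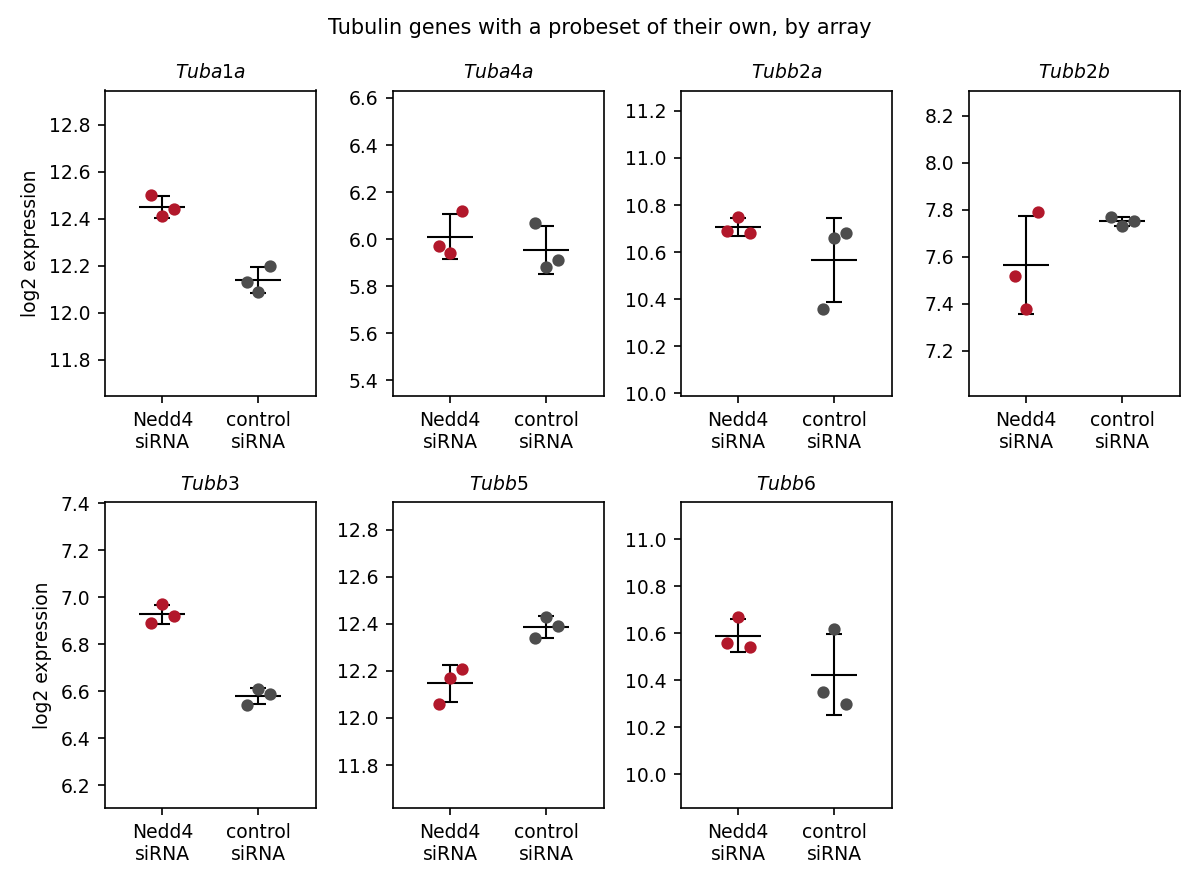
Log2 expression on each array for the 7 tubulin isotypes with a probeset of their own, Nedd4 siRNA (red) left of control siRNA (grey) in each panel. Each axis spans the same log2 range around its own gene, horizontal lines are means and bars are SDs (n = 3 arrays each). In Tuba1a, Tubb3 and Tubb5 the 3 arrays of a group stand apart from the 3 of the other, and in the other 4 genes they overlap.

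Among the 5 β-tubulins with a probeset of their own, Tubb3 alone passed the test. It encodes class III β-tubulin, the isotype enriched in neurons. Tubb3 read 6.89, 6.97 and 6.92 with Nedd4 siRNA and 6.54, 6.61 and 6.59 with control siRNA, with means of 6.93 ± 0.040 and 6.58 ± 0.036 (SD, n = 3 arrays each). Every Nedd4 siRNA array lay above every control siRNA array. The mean of Tubb3 over the arrays stood at percentile 55.2 of all probesets, not far above the array medians of 6.28 to 6.35. The log2 fold change was 0.35 (SE 0.083, 95% confidence interval 0.17 to 0.53, limma adjusted p = 0.0119), a 1.27-fold rise, with a two-sided exact permutation p of 0.1. With each array left out in turn it stayed past the threshold, at limma adjusted p values between 0.0227 and 0.0474.

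The rise of Tubb3 was read beside markers of neurons. Of 15 neuron markers, 14 were measured, and 0 rose while Nefl and Nefm, the light and medium neurofilament subunits, fell. The called share of 14.3% was below that of all genes, of which 9.62% rose and 9.13% fell. Nefl read 5.82, 5.83 and 5.84 with Nedd4 siRNA and 7.03, 7.01 and 7.01 with control siRNA, a log2 fold change of −1.19 (SE 0.081, limma adjusted p = 2.28e-06). Nefm fell by 0.65 on the log2 scale (SE 0.087, limma adjusted p = 0.00025). The defining markers were low and did not pass the test. Their mean log2 values with Nedd4 siRNA and control siRNA were 5.55 and 5.54 for Elavl3, 5.07 and 5.06 for Elavl4, 6.15 and 6.25 for Rbfox3, and 5.42 and 5.49 for Snap25, where the lowest value on any array was 3.96. The mean log2 level of the 14 markers ranged over arrays from 5.69 to 5.78 with Nedd4 siRNA and from 5.83 to 5.998 with control siRNA. The part of the neuron markers in the Tubb3 value was not tested.

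Tubb5, class I β-tubulin and the β isotype that most dividing cells use, had the opposite sign. It read 12.06, 12.17 and 12.21 with Nedd4 siRNA and 12.34, 12.43 and 12.39 with control siRNA. All Nedd4 siRNA arrays lay below all control siRNA arrays, with means of 12.15 ± 0.078 and 12.39 ± 0.045 (SD, n = 3 arrays each). The log2 fold change of −0.24 (SE 0.086, 95% confidence interval −0.43 to −0.05) did not pass the test after adjustment over all probesets (limma adjusted p = 0.0868), and the two-sided exact permutation test gave p = 0.1. Tubb5 did pass under 4 of the other settings, all by limma. It passed with array weights (−0.29, adjusted p = 0.0251) and with quantile normalisation (−0.28, adjusted p = 0.0249). It also passed with a trended and robust prior (adjusted p = 0.0227) and without the dimmest 50% of probesets (adjusted p = 0.0499). Tubb5 did not pass with any single array left out (limma adjusted p = 0.102 to 0.355) or with median centring (limma adjusted p = 0.147). The array weight was 3.86 for Nedd4 siRNA replicate 1, the lowest array for Tubb5, and 0.65 to 0.92 for the other arrays.

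Tubb4b, class IVb β-tubulin, is widely expressed and is a main β isotype of cilia. Both of its probesets were also assigned to Zfp646, a zinc finger gene, although the RefSeq accession listed for them belonged to Tubb4b. The first read 10.85, 10.98 and 10.87 with Nedd4 siRNA and 10.18, 10.48 and 10.12 with control siRNA. The second read 10.14, 10.22 and 10.15 with Nedd4 siRNA and 9.64, 9.82 and 9.56 with control siRNA. In both, the groups did not overlap, and control siRNA replicate 2 was the highest of the control arrays. The log2 fold changes were 0.64 (SE 0.11, 95% confidence interval 0.41 to 0.87, limma adjusted p = 0.00111) and 0.50 (SE 0.094, 95% confidence interval 0.29 to 0.70, limma adjusted p = 0.00268). These rises of 1.56-fold and 1.41-fold were the only calls among the 7 shared probesets in the limma fit. The first missed the threshold with the methods' t-test, the study's own test without moderation (adjusted p = 0.0614). The share of each assigned gene in these probesets was not tested.

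**Figure D2:**
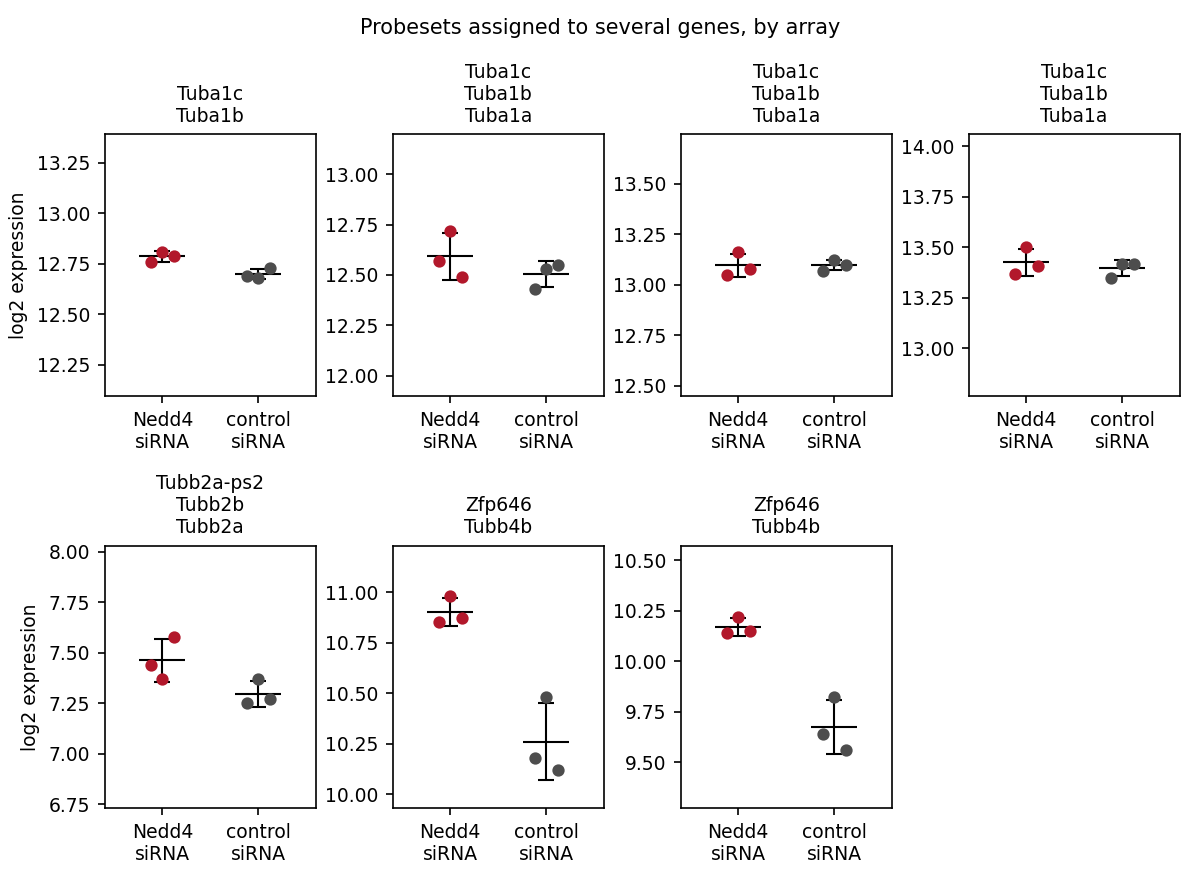
Log2 expression on each array for the 7 probesets assigned to several genes that include a listed tubulin, Nedd4 siRNA (red) left of control siRNA (grey), each panel titled with its gene symbols. Axes span the same log2 range in each panel, lines are means and bars are SDs (n = 3 arrays each). Both Zfp646 and Tubb4b panels show higher values on all Nedd4 siRNA arrays, at 10.14 to 10.98 against 9.56 to 10.48 over the pair of probesets, while the 3 panels of Tuba1a, Tuba1b and Tuba1c overlap.

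Tubb2a and Tubb2b, closely related class II β-tubulins of which Tubb2b is mutated in human polymicrogyria, are neighbouring genes with no protein-coding gene between them. Tubb2a read 10.69, 10.75 and 10.68 with Nedd4 siRNA and 10.36, 10.66 and 10.68 with control siRNA. Its groups met at 10.68, with control siRNA replicate 1 the lowest array, and the log2 fold change was 0.14 (95% confidence interval −0.08 to 0.36, limma adjusted p = 0.478). Tubb2b read 7.52, 7.38 and 7.79 with Nedd4 siRNA and 7.77, 7.73 and 7.75 with control siRNA. The Nedd4 siRNA arrays spread on both sides of the control siRNA arrays, and the log2 fold change was −0.19 (95% confidence interval −0.42 to 0.05, limma adjusted p = 0.327). The change of Tubb2a minus that of Tubb2b was 0.33 on the log2 scale, with overlapping within-array differences of 3.17, 3.37 and 2.89 with Nedd4 siRNA and 2.59, 2.93 and 2.93 with control siRNA (two-sided exact permutation test, p = 0.3). A probeset assigned to Tubb2a, Tubb2b and the pseudogene Tubb2a-ps2 read 7.44, 7.37 and 7.58 with Nedd4 siRNA and 7.25, 7.37 and 7.27 with control siRNA. Its log2 fold change of 0.17 (95% confidence interval −0.03 to 0.36) did not pass the test (limma adjusted p = 0.298).

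Tubb6, class V β-tubulin, which loosens microtubule arrays when it is abundant, read 10.56, 10.67 and 10.54 with Nedd4 siRNA and 10.35, 10.62 and 10.30 with control siRNA. The groups overlapped through control siRNA replicate 2, and the log2 fold change was 0.17 (95% confidence interval −0.05 to 0.39, limma adjusted p = 0.371). Control siRNA replicate 2 was also the highest control array for Tubb6, as for both probesets of Zfp646 and Tubb4b.

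Over the 7 measured isotypes, 2 rose (28.6%, against 9.62% of all genes) and 0 fell (against 9.13% of all genes), and 3 had groups that did not overlap (against 31.7% of all genes). With so few genes a single call moves these shares widely. The median log2 fold change of the 7 was 0.14, beside −0.02 over all genes, and the median of its absolute value was 0.19, beside 0.11. Each family held 1 call, Tuba1a among 2 measured α genes and Tubb3 among 5 measured β genes. The number of calls was 1 rather than 2 without control siRNA replicate 1, control siRNA replicate 2, Nedd4 siRNA replicate 1 or Nedd4 siRNA replicate 3, since Tuba1a dropped out each time.

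**Figure D3:**
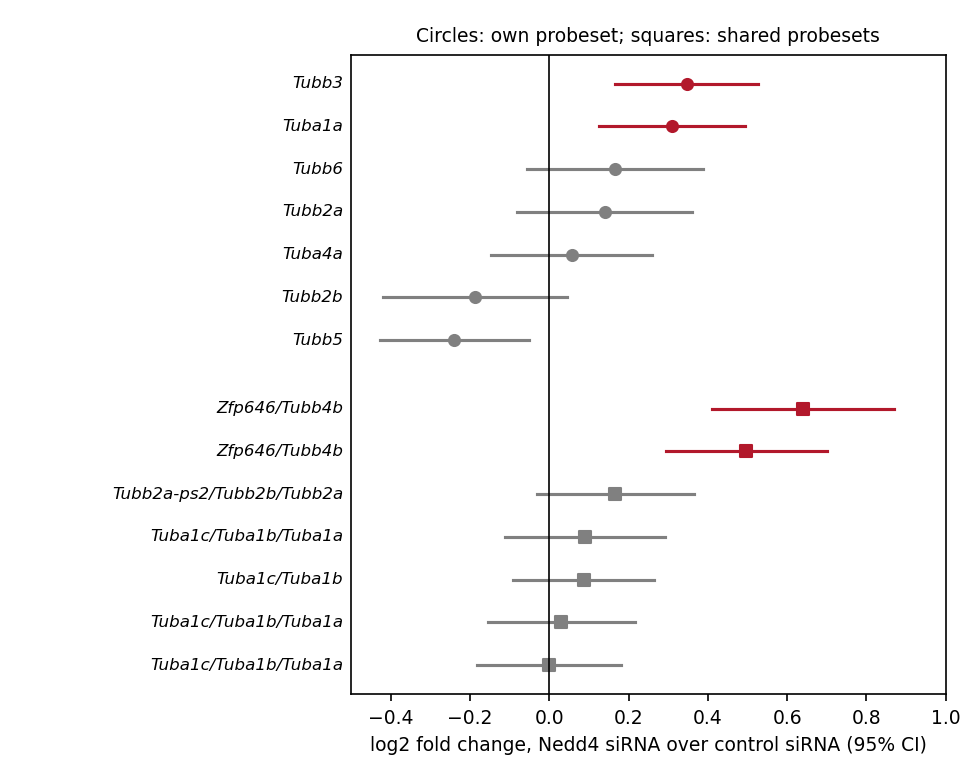
Log2 fold change of Nedd4 siRNA over control siRNA with its 95% confidence interval from limma, for the 7 isotypes with their own probeset (circles) and the 7 shared probesets (squares). Red marks a limma adjusted p under 0.05, which Tubb3 (0.35), Tuba1a (0.31) and the probesets of Zfp646 and Tubb4b (0.64 and 0.50) reached.

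**Figure D4:**
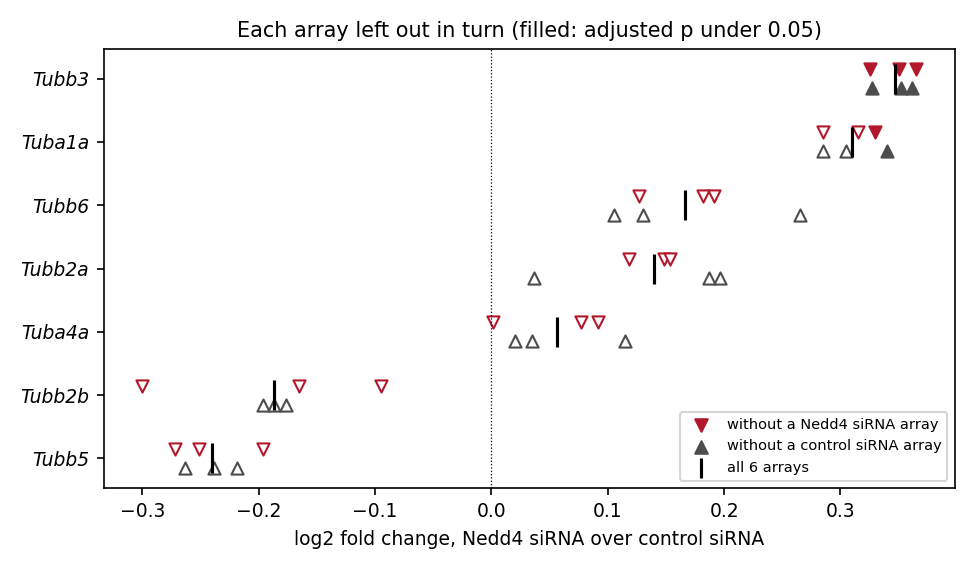
Log2 fold change of each measured isotype when single arrays were left out, with a Nedd4 siRNA array left out as red triangles pointing down and a control siRNA array as grey triangles pointing up. Filled triangles have a limma adjusted p under 0.05 and the black line is the value over all 6 arrays. Tubb3 is filled in every case, at 0.33 to 0.37, Tuba1a in 2 of 6 cases, and no isotype changes sign.

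The remaining tubulin genes were led by the γ-tubulins, which nucleate microtubules from the γ-tubulin ring complex rather than join the polymer. Tubg1, the main γ-tubulin of dividing cells, read 10.38, 10.76 and 10.60 with Nedd4 siRNA and 11.50, 11.64 and 11.70 with control siRNA. It fell by 1.03 on the log2 scale (SE 0.11, limma adjusted p = 4.34e-05), which is 2.05-fold lower. Tubg2, the second γ-tubulin, read 7.53, 7.71 and 7.60 with Nedd4 siRNA and 8.63, 8.80 and 8.86 with control siRNA. It fell by 1.15 (SE 0.095, limma adjusted p = 7.93e-06), which is 2.22-fold lower. In both genes all Nedd4 siRNA arrays lay below all control siRNA arrays by a wide margin, and the genes are direct neighbours in the RefSeq annotation. Whether RNA of either γ-tubulin gene also binds the probeset of the other was not tested. Tube1, the ε-tubulin of centrioles, read 6.89, 7.30 and 7.12 with Nedd4 siRNA and 7.30, 7.65 and 7.64 with control siRNA. Its groups met at 7.30, and it fell by 0.43 (SE 0.12, limma adjusted p = 0.0345). Without control siRNA replicate 2, control siRNA replicate 3, Nedd4 siRNA replicate 1 or Nedd4 siRNA replicate 3 the limma adjusted p of Tube1 was 0.112, 0.133, 0.184 and 0.0716. It was 0.06 with median centring, and the adjusted p of Tube1 was 0.252 with the methods' t-test. The other 7 of these 10 tubulins did not pass the test (30.0% called, beside 9.62% of all genes higher and 9.13% lower), among them Tubd1, Tubb4a, Tubb1 and Tuba8, with log2 fold changes of −0.19, 0.05, −0.05 and −0.11.

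Of 21 genes of the γ-tubulin ring complex and of augmin, which recruits it to existing microtubules, 20 were measured, 1 rose and 4 fell (25% called, beside 9.62% of all genes higher and 9.13% lower), with a median log2 fold change of −0.18. Beside Tubg1 and Tubg2, Mzt1, a small subunit that primes the complex for attachment, averaged 9.52 with Nedd4 siRNA and 10.13 with control siRNA (−0.61, SE 0.10, limma adjusted p = 0.00108, and 0.0531 with the methods' t-test). Tubgcp4, a ring subunit, averaged 10.44 with Nedd4 siRNA and 10.77 with control siRNA (−0.32, SE 0.094, limma adjusted p = 0.0331). Akap9, a Golgi and centrosome scaffold that anchors the complex, averaged 9.23 with Nedd4 siRNA and 8.88 with control siRNA (0.35, SE 0.089, limma adjusted p = 0.0168). The limma adjusted p of Akap9 was 0.0587 without control siRNA replicate 1 and 0.0872 without Nedd4 siRNA replicate 1, and its adjusted p was 0.0617 with the methods' t-test. The list held 3 calls without Nedd4 siRNA replicate 1 and 2 with the methods' t-test. None of the 7 measured augmin genes passed, with log2 fold changes from −0.43 for Haus8 to 0.30 for Haus7.

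Newly made tubulin is folded by prefoldin and the CCT chaperonin and assembled into heterodimers by the tubulin cofactors. All 24 genes of this list, which includes 2 factors of mRNA autoregulation, were measured, and 4 rose and 1 fell (20.8% called, beside 9.62% of all genes higher and 9.13% lower). Arl2, the small GTPase that works with the tubulin cofactors, read 10.05, 10.36 and 9.97 with Nedd4 siRNA and 11.18, 11.38 and 11.59 with control siRNA. It fell by 1.26 (SE 0.13, limma adjusted p = 3.17e-05), which is 2.39-fold lower, and the groups lay far apart. Cct3 and Cct4, CCT subunits, rose by 0.47 (SE 0.11, limma adjusted p = 0.00892) and 0.34 (SE 0.084, limma adjusted p = 0.0141). Tbcel, a cofactor-like protein that destabilises tubulin, rose by 0.46 (SE 0.091, limma adjusted p = 0.00393), and the cofactor Tbcb by 0.39 (SE 0.10, limma adjusted p = 0.0195). Without Nedd4 siRNA replicate 1 and without Nedd4 siRNA replicate 3, Cct4 stood at a limma adjusted p of 0.0725 and 0.0623, and the list held 3 calls without Nedd4 siRNA replicate 3. Cct3 missed the threshold with the methods' t-test (adjusted p = 0.125). The autoregulation factors Ttc5, which recognises nascent tubulin on ribosomes, and Scaper had log2 fold changes of 0.19 (limma adjusted p = 0.272) and −0.04 (limma adjusted p = 0.877).

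Of 26 measured tubulin-modifying enzymes, 4 rose, 6 fell and 16 did not pass (38.5% called, beside 9.62% of all genes higher and 9.13% lower), and 6 were called with the methods' t-test. Tpgs2, a subunit of the tubulin polyglutamylase complex, read 9.68, 10.11 and 9.91 with Nedd4 siRNA and 11.18, 11.25 and 11.47 with control siRNA. It fell by 1.40 (SE 0.12, limma adjusted p = 9.46e-06), which is 2.64-fold lower. Ttll1, the catalytic subunit of the same complex, averaged 10.65 with Nedd4 siRNA and 10.99 with control siRNA (−0.33, SE 0.099, limma adjusted p = 0.0376). Ttll4, a glutamylase that starts side chains, averaged 9.02 ± 0.067 with Nedd4 siRNA and 9.92 ± 0.066 with control siRNA (SD, n = 3 arrays each), and fell by 0.90 (SE 0.087, limma adjusted p = 2.38e-05). Ttll7, a β-tubulin glutamylase, rose by 0.45 (SE 0.089, limma adjusted p = 0.0035). Tpgs1, another subunit of the complex, had a log2 fold change of 0.15 (limma adjusted p = 0.7), and the glutamylases Ttll5, Ttll6, Ttll9, Ttll11 and Ttll13 did not pass, at −0.24 to −0.04.

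Atat1, the acetyltransferase of α-tubulin, averaged 8.55 with Nedd4 siRNA and 9.09 with control siRNA (−0.54, SE 0.097, limma adjusted p = 0.00207, and 0.0541 with the methods' t-test). Sirt2, a deacetylase of α-tubulin, averaged 9.85 with Nedd4 siRNA and 10.48 with control siRNA (−0.63, SE 0.092, limma adjusted p = 0.000479). Hdac6, the other α-tubulin deacetylase, rose by 0.35 (SE 0.10, limma adjusted p = 0.0305). In the tyrosination cycle, Ttl, the ligase that restores the C-terminal tyrosine, averaged 8.79 with Nedd4 siRNA and 8.29 with control siRNA (0.50, SE 0.095, limma adjusted p = 0.0027). Vash2, which removes that tyrosine, fell by 0.46 (SE 0.11, limma adjusted p = 0.0126). Its level was low, at 5.23 with Nedd4 siRNA and 5.70 with control siRNA, below the array medians of 6.28 to 6.35. Of the other genes of this list, Vash1 was not measured and Svbp did not pass the test (0.27, limma adjusted p = 0.0676). Agbl3, a carboxypeptidase that shortens glutamate side chains, rose by 0.45 (SE 0.083, limma adjusted p = 0.00218). Whether the calls of Hdac6, Ttl, Vash2 and Agbl3 hold under the other settings was not tested gene by gene.

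**Figure D5:**
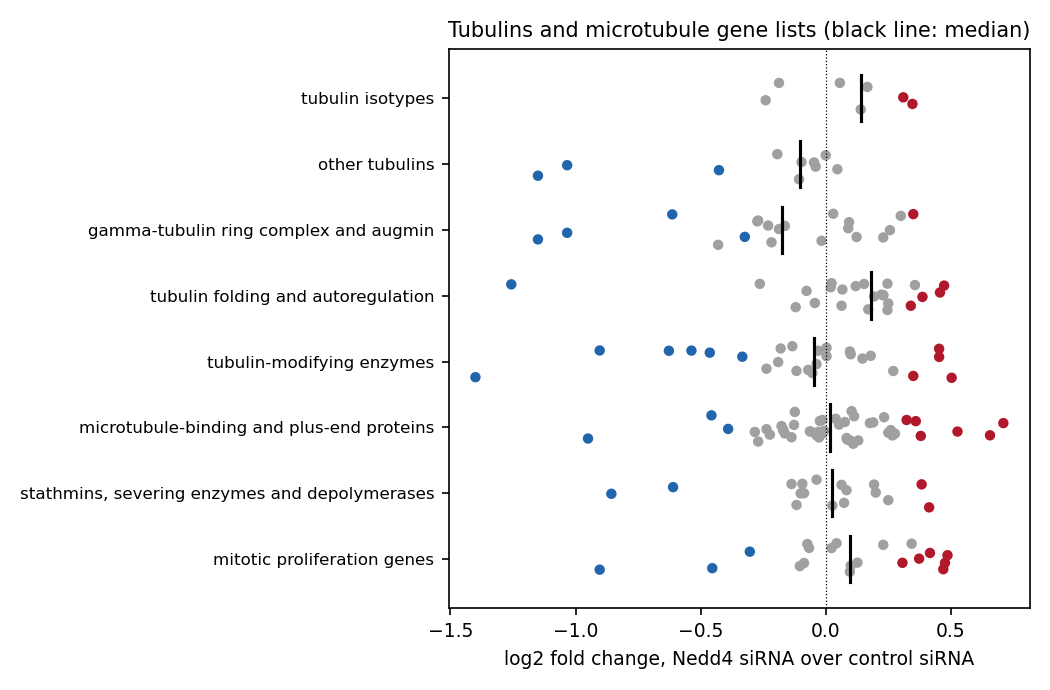
Log2 fold change of Nedd4 siRNA over control siRNA for each measured gene of the isotypes and of 7 microtubule gene lists, with higher calls in red, lower calls in blue and genes not past a limma adjusted p of 0.05 in grey. The black line is the median of each list, from −0.18 in the ring complex to 0.18 in the folding list, and Tubg1 and Tubg2 appear in a pair of lists.

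Of 46 microtubule-binding and plus-end proteins, all measured, 6 rose, 3 fell and 37 did not pass. The called share of 19.6% was near that of all genes, of which 9.62% rose and 9.13% fell, and 5 were called with the methods' t-test. Map1a, a neuronal microtubule-associated protein, read 7.77, 8.06 and 7.81 with Nedd4 siRNA and 8.87, 8.98 and 8.64 with control siRNA, and fell by 0.95 (SE 0.11, limma adjusted p = 0.000102). Mapre3, which encodes the plus-end protein EB3, read 10.56, 10.40 and 10.33 with Nedd4 siRNA and 9.79, 9.82 and 9.55 with control siRNA, and rose by 0.71 (SE 0.10, limma adjusted p = 0.00043). Its relative Mapre2 fell by 0.46 (SE 0.11, limma adjusted p = 0.011). Camsap1, which binds minus ends, rose by 0.53 (SE 0.086, limma adjusted p = 0.00104), and Mtus1 fell by 0.39 (SE 0.084, limma adjusted p = 0.00644). Map2, Map7d1, Clasp2 and Slain2 were the other genes that rose, by 0.32 to 0.66.

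Among the stathmins, severing enzymes and depolymerases, 17 of 18 genes were measured, 2 rose and 2 fell (23.5% called, beside 9.62% of all genes higher and 9.13% lower), and 2 were called with the methods' t-test. Fign, the severing enzyme fidgetin, averaged 7.45 with Nedd4 siRNA and 8.30 with control siRNA (−0.86, SE 0.10, limma adjusted p = 0.000116). Katnal1, a katanin, averaged 7.63 with Nedd4 siRNA and 8.24 with control siRNA (−0.61, SE 0.090, limma adjusted p = 0.000498). Spast, the severing enzyme spastin, rose by 0.41 (SE 0.093, limma adjusted p = 0.00803, and 0.0653 with the methods' t-test). Stmn1, which sequesters tubulin dimers, rose by 0.38 (SE 0.10, limma adjusted p = 0.0208). Stmn1 missed the threshold without control siRNA replicate 3, Nedd4 siRNA replicate 1, Nedd4 siRNA replicate 2 or Nedd4 siRNA replicate 3, at limma adjusted p values of 0.0812, 0.0577, 0.0691 and 0.0525, and its adjusted p was 0.14 with the methods' t-test.

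Tubulin transcripts were also read beside genes of mitosis, since spindles are a main use of tubulin in dividing cells. Of 20 measured mitotic genes, 6 rose and 3 fell (45.0% called, beside 9.62% of all genes higher and 9.13% lower). In this list 5 genes were called without control siRNA replicate 3 and 4 with the methods' t-test. Tpx2, Aurka and Kif20a, which act on the spindle, rose by 0.49, 0.48 and 0.47 (limma adjusted p = 0.00267, 0.00391 and 0.00255). Aurka stood at an adjusted p of 0.0587 with the methods' t-test. Bub1b, a spindle checkpoint kinase, fell by 0.90 (limma adjusted p = 4.96e-05). The mean log2 level of the 20 genes ranged over arrays from 9.88 to 10.02 with Nedd4 siRNA and from 9.79 to 9.92 with control siRNA. Their part in the tubulin values was not tested.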

How the data were processed

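In all, 6 arrays of NCU10K cells were used, 3 with Nedd4 siRNA and 3 with control siRNA, grouped by their titles. The deposited values are log2 expression of 28440 probesets, which the authors made from 300 ng of RNA per array with Partek 6.5, using the background correction of RMA, a correction for GC content and mean probe summarisation. No further normalisation was applied, and arrays give no read depth. Probesets were named from the platform annotation, with 21780 carrying 1 symbol, 1618 several and 5042 none.

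The main test was limma (version 3.58.1, R 4.3.3, lmFit and eBayes with no covariate) over all probesets, with Benjamini-Hochberg adjustment at 0.05. The test was tried on simulated data. Exact permutation tests over arrays were two-sided and run in Python 3.11.15 with NumPy 2.4.6. NumPy, pandas 2.3.3 and Matplotlib 3.10.9 served for counts and figures. The study's methods name an ANOVA, which was run as an alternative (the methods' t-test). No column of the authors' own comparisons and no supplementary table was used.

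The members and the gene lists were chosen with earlier results of these data known. The rule named all members, Nedd4, up to 4 genes with the smallest p per microtubule or mitotic list, and the defining markers of neural crest, neuron, Schwann cell or glial, and smooth muscle or fibroblast cells. Other list genes were named after their values were seen, to complete counts. Whether the calls of these later genes hold under the alternatives was not tested gene by gene. The 11 lists held 216 genes, of which 207 were analysed here. The main fit had no replicate block. Promoter windows came from RefSeq (GRCm38.p6), for 8 of the 10 listed genes. Alternatives were the methods' t-test, a trended robust prior, array weights, the replicate block, median centring, quantile normalisation, removal of the dimmest 25% or 50%, single-symbol probesets alone, an adjusted p under 0.01 and each array left out.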

Additional observations from a re-analysis of the deposited data

How the results depend on the processing

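The number of probesets past the threshold was 4579, and it was 2134 with the methods' t-test, 2881 at an adjusted p under 0.01, and 2962 to 4312 with single arrays left out, lowest without Nedd4 siRNA replicate 1. Of the isotypes, 2 were past the threshold, 0 at an adjusted p under 0.01 and 1 to 2 with single arrays left out. At that stricter threshold Tuba1a (0.31, limma adjusted p = 0.0241) and Tubb3 (0.35, limma adjusted p = 0.0119) no longer passed. With single arrays left out, Tuba1a ranged from 0.285 to 0.34 and Tubb5 from −0.27 to −0.20. Tubb5 passed with the trended robust prior (−0.24), array weights (−0.29), quantile normalisation (−0.28) and without the dimmest 50% of probesets (−0.24). It did not pass with any single array left out (limma adjusted p = 0.102 to 0.355). Over all lists, 59 of 207 measured genes passed, beside 3737 of 19933 genes in all. The count over the lists was 36 with the methods' t-test and 43 to 58 with single arrays left out. Groups share the replicate numbers 1 to 3, but deviations of same-numbered arrays correlated at −0.0123, 0.472 and −0.0131, and not every array correlated best with its own number, so the number is not known to pair arrays. With the replicate number as a block, 4962 probesets and the same number of isotypes, 2, passed (Tuba1a at limma adjusted p = 0.0273, Tubb3 at 0.0147, Tubb5 at 0.0745), and none of these calls changed. Signs that turned were those of values that passed under no setting. The second probeset of Tuba1a, Tuba1b and Tuba1c, at 0.00, took both signs (−0.0317 to 0.0233 with single arrays left out and −0.045 with quantile normalisation). The others were the third probeset of Tuba1a, Tuba1b and Tuba1c (−0.00545 with array weights, −0.0222 with quantile normalisation and −0.00667 to 0.0583 with single arrays left out), Elavl3 (−0.04 to 0.12 with single arrays left out), Elavl4 (−0.0370 with array weights and −0.0417 to 0.0983 with single arrays left out), Snap25 (−0.148 to 0.0367 with single arrays left out) and Col1a1 (−0.00222 with quantile normalisation and −0.0683 to 0.0767 with single arrays left out). The cause of these shifts was not tested. Probesets rest on 3 arrays a group and on probe matches that near-identical tubulin genes can share, so a change in Tuba1b, Tuba1c or Tubb4b alone could not be read. Each measured isotype had 1 single-symbol probeset, so the mean over probesets and the other probesets could give no value, and 3 of the 4 planned pairs of neighbouring genes could not be run.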

Other observations

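Lists of other cell types gave values that the isotypes were not set against above. Of 12 smooth muscle and fibroblast markers, 3 rose and 0 fell with Nedd4 siRNA. Among the defining markers of this list, Dcn, a proteoglycan of fibroblasts, averaged 7.76 with Nedd4 siRNA and 7.18 with control siRNA (limma adjusted p = 0.000439). The contractile genes Acta2, at 8.82 and 8.60, and Myh11, at 5.75 and 5.60, and the collagen gene Col1a1, at 7.28 and 7.27, did not pass the test. The mean log2 level of the 12 markers ranged over arrays from 7.66 to 7.74 with Nedd4 siRNA and from 7.44 to 7.53 with control siRNA. Of 7 measured Schwann cell and glial markers, 1 rose and 2 fell (42.9% called, beside the same shares of all genes). Of 15 neural crest markers, 2 rose and 6 fell (53.3% called, beside the same shares of all genes), and 4 were called with the methods' t-test. The part of these markers in the tubulin values was not tested.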
